A study of Malus hupehensis with 9 samples.

Results

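In the bark phloem of QZ1, a columnar hybrid apple rootstock, 127 genes were at least 1.5 log2 units higher in every library than in any compared library of the mutant A1d and of wild type (WT). They were chosen from the deposited expression values themselves, 127 of the 39951 gene identifiers measured. The values are FPKM, reads scaled by the length of the gene and by the total reads of the library, taken as log2(FPKM + 1). A gene was included where its lowest value over the 3 QZ1 libraries exceeded its highest value over A1d replicates 2 and 3 and the 3 WT libraries by 1.5 or more. This difference is called the margin below. The means of A1d and WT also had to differ by under 0.8, and identifiers MD10G1170000 to MD10G1199999 on chromosome 10 were left out. These contrasts selected the genes, so their differences between rootstocks are described and carry no test.

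Phloem at bud break was profiled by sequencing of polyadenylated RNA in 9 libraries, 3 per rootstock. QZ1 came from a cross of Malus hupehensis, the mother, with CO, a columnar line of domestic apple, and grows in the columnar form. A1d is a mutant of M. hupehensis with partial insensitivity to gibberellin (GA), and WT is M. hupehensis itself, named PYTC in the labels. The labels give neither the age of the trees nor whether the replicates were separate trees, and the paternal line was not analysed here. QZ1 therefore carries another parent's genome throughout, whereas A1d and WT are of the same species. The file names no genes, so the phloem label could not be checked against marker genes and no gene is given a function.

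Phloem is the part of the bark that carries sugars, amino acids, hormones and RNA between leaves, stems and roots. At bud break it supplies the growing buds from reserves in bark and wood. Columnar apples have short internodes and few long side branches, and the trait is inherited from a dominant locus on chromosome 10. Gibberellins are hormones that promote internode growth, and plants that respond weakly to them are commonly dwarfed.

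Library totals were 15684510 to 18022986 reads. A1d replicate 1 stood apart, with 18107 genes at 0 against 7183 to 9029 in the other 8 libraries. It was not used to choose the genes and is given separately throughout.

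The levels of the 127 genes in QZ1 were moderate, and in the other rootstocks most were close to 0. The mean over QZ1 libraries was between 2.21 and 445 FPKM, with a median of 8.39 FPKM, beside a median of 8.27 FPKM over the 26510 genes tested. The median of the gene means was 0.216 FPKM in A1d replicates 2 and 3, and 0.187 FPKM in WT. Of the 127 genes, 56 reached a mean of 10 FPKM in QZ1 and 8 reached 100 FPKM, while 33 stayed under 5 FPKM. The margin had a median of 1.97 and a maximum of 4.03 log2 units, was 3 or more in 13 genes and was under 2 in 65. In bulk bark, fewer cells of a type and less RNA per cell cannot be told apart.

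**Figure D1:**
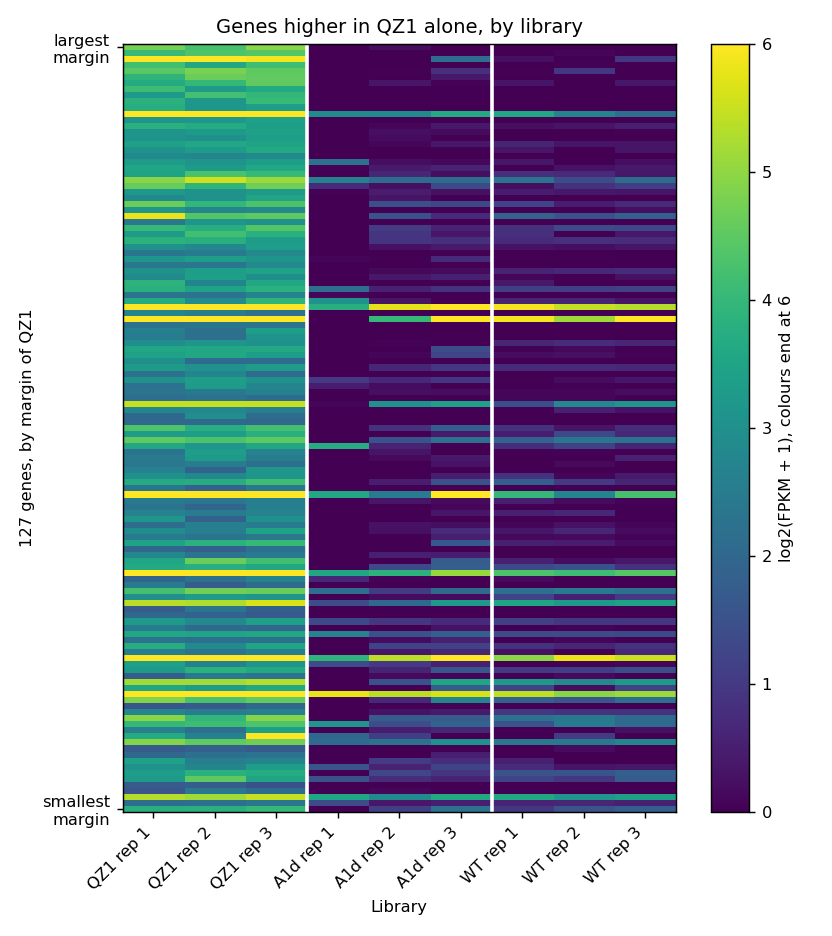
Each row is one of the 127 genes, ordered by margin from largest at the top to smallest at the bottom, and each column is a library of QZ1, A1d or WT. Colour gives log2(FPKM + 1), with the scale ending at 6; the QZ1 columns are brighter than the A1d and WT columns of the same row, with A1d replicate 1 mostly at 0.

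The genes fell into 4 ranges by their reads in the 5 compared libraries of A1d and WT. In 25 there was no read at all, in 23 there were 1 to 10 reads in total, and 18 had at least 1 FPKM in each of the 5. The remaining 61 lay between. Reads over the 3 QZ1 libraries numbered 35 to 14788 per gene, with a median of 601. All 127 passed the filter of 1 FPKM in at least 3 libraries, which the QZ1 libraries alone fulfilled. The linear model of limma called 123 of them higher in QZ1 than in WT at an adjusted p under 0.05, where 5.05% of all tested genes were called higher. Against A1d it also called 123, beside 2.50% of all tested genes, and 121 were called in both. Since the same libraries chose the genes, nothing is read from these counts.

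The 25 genes without a read in the 5 compared libraries averaged 2.21 to 13.6 FPKM in QZ1, with a median of 4.68 FPKM and 35 to 768 reads. Of these, 24 also had no read in A1d replicate 1. The exception was MD03G1297500, with 0.0545 FPKM in A1d replicate 1 and 3.93, 3.86 and 5.57 FPKM in QZ1; it was named after its values were seen. MD05G1211800 on chromosome 5 had the highest mean, with 8.43, 17.6 and 14.7 FPKM in the QZ1 libraries and no read in the 6 libraries of A1d and WT. With 3 reads over the WT group taken as the floor, this was at least 192-fold higher in QZ1 than in WT. Its QZ1 libraries differed by about as much as those of MD09G1124500, at 16.3, 8.62 and 11.8 FPKM.

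Short genes were among those with no read elsewhere. MD00G1054300, with a length of 199 bases the shortest of the 127, had 13.2, 8.11 and 15.7 FPKM in QZ1, from 132 reads in all. It was at least 41.1-fold higher than in WT. MD16G1052400, of 390 bases, had 12.4, 7.85 and 9.27 FPKM in QZ1, at least 64.1-fold higher than in WT. MD15G1198900 is longer, at 1702 bases, and its 7.54, 7.88 and 9.74 FPKM in QZ1 came from 768 reads. That gave the highest bound of the 25, at least 239-fold above WT and at least 171-fold above A1d replicates 2 and 3. Bounds and intervals cover counting error only, because reads copied by PCR are not independent molecules. They take no account of reads that may have been left unassigned in A1d or WT.

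The largest margins belonged to genes with traces elsewhere, but this order depends on the 1 added to FPKM. With 0.1 added instead, the margins were 6.55 for MD09G1284900 and 6.07 for MD06G1115000. MD09G1124500, without a read in A1d and WT, then had 6.45. MD06G1115000, of 324 bases on chromosome 6, had 25.9, 18.2 and 29.5 FPKM in QZ1. It had 0.173 FPKM in A1d replicate 2, a single read, and none in the other libraries of A1d and WT. MD09G1284900 had 15.4, 19.2 and 20.5 FPKM in QZ1 from 1817 reads, against no read in A1d and 2 reads in WT, all in WT replicate 2. After scaling by library totals the ratio to WT was 849 (95% counting interval 235 to 7010). MD13G1165800 was alike, with 17.2, 11.1 and 16.9 FPKM in QZ1, no read in A1d and 1 read in WT, a ratio to WT of 1390 (95% counting interval 250 to 55100). In MD06G1115000, MD09G1284900 and MD13G1165800 the lowest QZ1 library stood over 3.5 log2 units above the highest compared library.

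MD00G1155400 was the most abundant of the 10 genes with the largest margins. It had 92.1, 62.9 and 58.2 FPKM in QZ1. In A1d it had 0, 0 and 3.45 FPKM, and in WT 0.194, 0 and 0.974 FPKM. A1d replicate 3 was thus the highest library outside QZ1, still 3.74 log2 units below the lowest QZ1 library. The digits 00 in its identifier name no chromosome, as in 5 of the 127.

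MD15G1304800 had 21, 26.8 and 21.8 FPKM in QZ1. It had 0, 0.0269 and 0.746 FPKM in A1d, and 0.0285, 0.953 and 0 FPKM in WT, so that 1 library of each held most of the reads. MD13G1250300 had 13.9, 23.8 and 22 FPKM in QZ1 against 3 reads in A1d, all in replicate 3, and none in WT. MD17G1154300 had 11.9, 15 and 22.2 FPKM in QZ1, 0, 0.285 and 0.0403 FPKM in A1d, and 0.258, 0 and 0.303 FPKM in WT, a ratio to WT of 87.2 (95% counting interval 50.8 to 164).

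**Figure D2:**
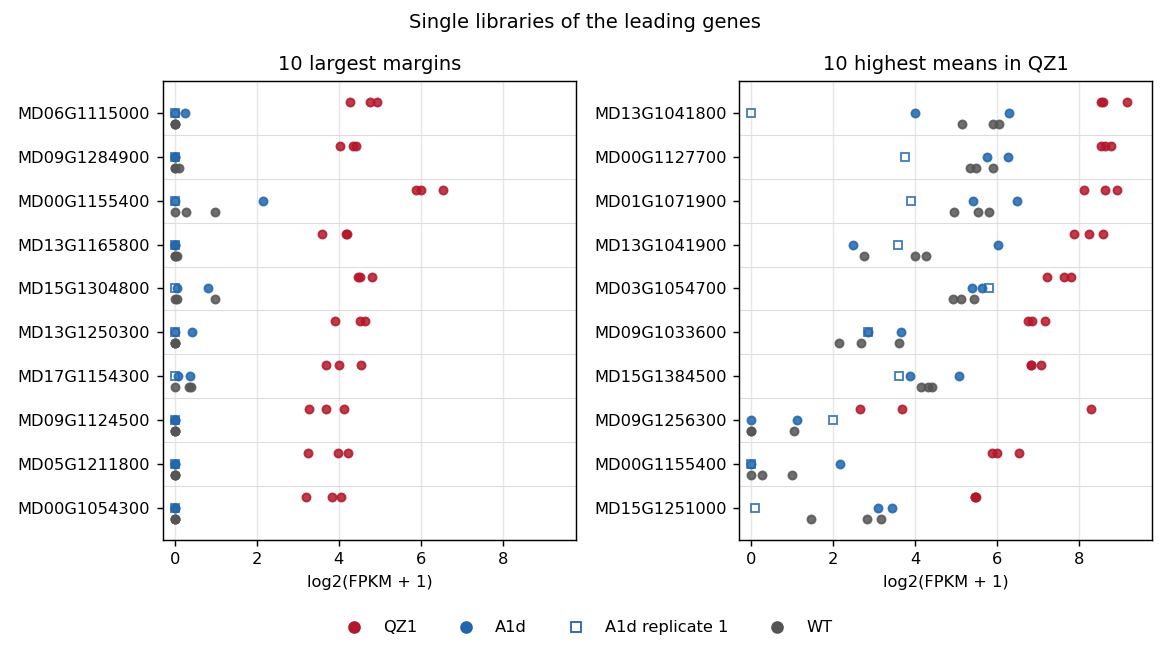
Points are single libraries on the log2(FPKM + 1) scale, QZ1 in red, A1d in blue with replicate 1 as an open square, and WT in grey. The left panel holds the 10 genes with the largest margins, where the A1d and WT points lie near 0, and the right panel the 10 with the highest means in QZ1, where most A1d and WT points lie well above 0.

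Genes expressed in all rootstocks showed smaller ratios. For the 18 with at least 1 FPKM in each compared library, the ratio of QZ1 to WT ran from 4.16 to 23.7 with a median of 6.48, and that of QZ1 to A1d replicates 2 and 3 from 4.24 to 13.6 with a median of 6.83. MD13G1041800 was the most abundant of all, with 578, 384 and 372 FPKM in QZ1. It had 0, 14.9 and 78.1 FPKM in A1d and 58.4, 34.2 and 64.7 FPKM in WT. Its ratio of QZ1 to WT was 8.46 (95% counting interval 7.98 to 8.98). The linear model, which uses the spread between libraries, did not call it higher in QZ1 than in WT, but did so against A1d. All 3 QZ1 libraries were above every other library, and the A1d libraries spread more widely than those of WT.

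The next identifier along chromosome 13, MD13G1041900, was also among the most abundant. It had 382, 303 and 237 FPKM in QZ1, 10.9, 4.61 and 64.1 FPKM in A1d, and 15, 5.76 and 18.1 FPKM in WT. A1d replicate 3 was again the highest outside QZ1. The method that assigned reads to genes is not given in the sources used here, so reads of near-identical neighbours or overlapping genes could have been split between them.

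MD00G1127700 had 440, 395 and 372 FPKM in QZ1, 12.5, 53.4 and 76.3 FPKM in A1d, and 58.6, 43.5 and 39.5 FPKM in WT. MD01G1071900 had 491, 278 and 397 FPKM in QZ1, 13.9, 41.4 and 88.7 FPKM in A1d, and 30, 54.7 and 45.1 FPKM in WT. The ratios of QZ1 to WT were close, at 8.51 for MD00G1127700 and 8.98 for MD01G1071900. MD09G1033600 had the largest margin among the 18 genes expressed throughout, 3.10 log2 units. It had 144, 107 and 114 FPKM in QZ1, 6.18, 6.19 and 11.7 FPKM in A1d, and 11.2, 5.45 and 3.41 FPKM in WT, a ratio to WT of 18.1 (95% counting interval 16.4 to 20).

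MD03G1054700 and MD15G1384500 had ratios of QZ1 to WT below the median of the 18, at 5.41 and 6.45. MD03G1054700 had 224, 148 and 198 FPKM in QZ1, 55, 40.9 and 48.7 FPKM in A1d, and 42.1, 29.6 and 33.6 FPKM in WT, and here A1d replicate 1 was the highest of its group. MD15G1384500 had 113, 135 and 113 FPKM in QZ1, 11.1, 13.7 and 32.5 FPKM in A1d, and 18.9, 16.7 and 20.3 FPKM in WT. MD15G1251000 had 43.5, 43.4 and 43.1 FPKM in QZ1, an SD of 0.224 FPKM (n = 3), whereas A1d had 0.0617, 7.49 and 9.78 FPKM and WT 1.72, 6.12 and 8.02 FPKM.

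Replicates of QZ1 mostly lay close together. The SD over QZ1 libraries had a median of 0.26 log2 units for the 127 genes and 0.21 for all tested genes. In 107 genes the highest QZ1 library was under 2 times the lowest, and in 2 it was over 3 times. MD09G1256300 was the extreme, with 11.9, 5.25 and 316 FPKM in QZ1, 3.01, 1.15 and 0 FPKM in A1d, and 0, 1.05 and 0 FPKM in WT, and an SD over QZ1 of 3.01 log2 units. Its place among the 10 most abundant genes rests on QZ1 replicate 3 alone. MD10G1040300, of 324 bases, had 7.78, 2.58 and 7.04 FPKM in QZ1 and no read in the other libraries; it was named after its values were seen. QZ1 replicate 2 was the lowest QZ1 library in 61 of the 127 genes (48.0%), against 36.2% of tested genes.

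The threshold on the margin cut through a continuous range. Just inside were MD08G1072100, MD10G1038700 and MD16G1256200, with margins of 1.507, 1.505 and 1.502. Just outside were MD00G1054400, MD10G1167800 and MD08G1109300, with margins of 1.498, 1.497 and 1.495. MD00G1054400 had 14.3, 1.82 and 6.93 FPKM in QZ1 and no read elsewhere, so its lowest QZ1 library kept it out. MD08G1072100 had 39.1, 34.8 and 44.4 FPKM in QZ1, 10.7, 6.31 and 11.6 FPKM in A1d, and 11, 7.89 and 9.52 FPKM in WT. MD10G1038700 had 3.45, 3.64 and 4.14 FPKM in QZ1, 1.61, 0.301 and 0.429 FPKM in A1d, and 0.524, 0.569 and 0.432 FPKM in WT. In these genes inside the threshold all QZ1 libraries were above all others. MD16G1256200 had 12.6, 13 and 15 FPKM in QZ1, 0, 1.15 and 3.8 FPKM in A1d, and 0.971, 1.91 and 2.44 FPKM in WT. Outside it, MD10G1167800 had 3.36, 2.01 and 4.52 FPKM in QZ1, 0, 0.022 and 0.0653 FPKM in A1d, and 0, 0.0236 and 0 FPKM in WT. MD08G1109300 had 4.27, 3.62 and 3.14 FPKM in QZ1, 0, 0 and 0.47 FPKM in A1d, and 0.168, 0 and 0 FPKM in WT. The genes outside also had no overlap between QZ1 and the rest. On both sides a positive margin fixed this for the compared libraries, so nothing is read from it. A further 27 genes met the margin and were left out because A1d and WT differed by 0.8 or more, with A1d above WT in 22 of them.

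A1d replicate 3 decided much of the membership. Of the 102 genes with a read in the 5 compared libraries, it was the highest of the 5 in 41 (40.2%), while among tested genes with such a read it was highest in 18.2%. The median of its level relative to the QZ1 mean was 3.22% over the 127 genes, against 1.76% for A1d replicate 2 and 1.58 to 1.85% in the WT libraries other than replicate 2, which had 1.49%. When A1d replicate 3 was left out, 305 genes met the conditions, of which 117 were among the 127 and 188 were others. Leaving out A1d replicate 2 or any 1 WT library gave 125 to 135 genes.

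Most of the 188 others were low in A1d replicate 2 and WT beside QZ1 and intermediate or high in A1d replicate 3. Exceptions included MD01G1020500 and MD15G1239300, at 0 and 0.155 FPKM in A1d replicate 3, both named after their values were seen. In 186 of the 188 A1d replicate 3 was the highest of the 5 libraries, and in 35 it reached or exceeded the lowest QZ1 library. Its level was 48.6% of the QZ1 mean in the median gene, with quartiles of 32.3 and 70.3%. A gene could join the 188 only because A1d replicate 3 had kept it out of the 127. Its high level in these genes is therefore bound to the choice, and nothing is read from the level. The same step added far fewer genes for the other compared libraries. It added 13 without A1d replicate 2, and 10, 8 and 8 without WT replicates 1, 2 and 3. In A1d replicate 1, which had no part in this choice, 146 of the 188 had no read, as had 21.3% of tested genes. That library had 18107 genes at 0, and the part of this shortage in the count was not tested. The most abundant was MD01G1199000, with 1230, 1160 and 1070 FPKM in QZ1, 35.5, 171 and 346 FPKM in A1d, and 178, 84.9 and 92.1 FPKM in WT; it was named after its values were seen. What set A1d replicate 3 apart for these genes was not tested.

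**Figure D3:**
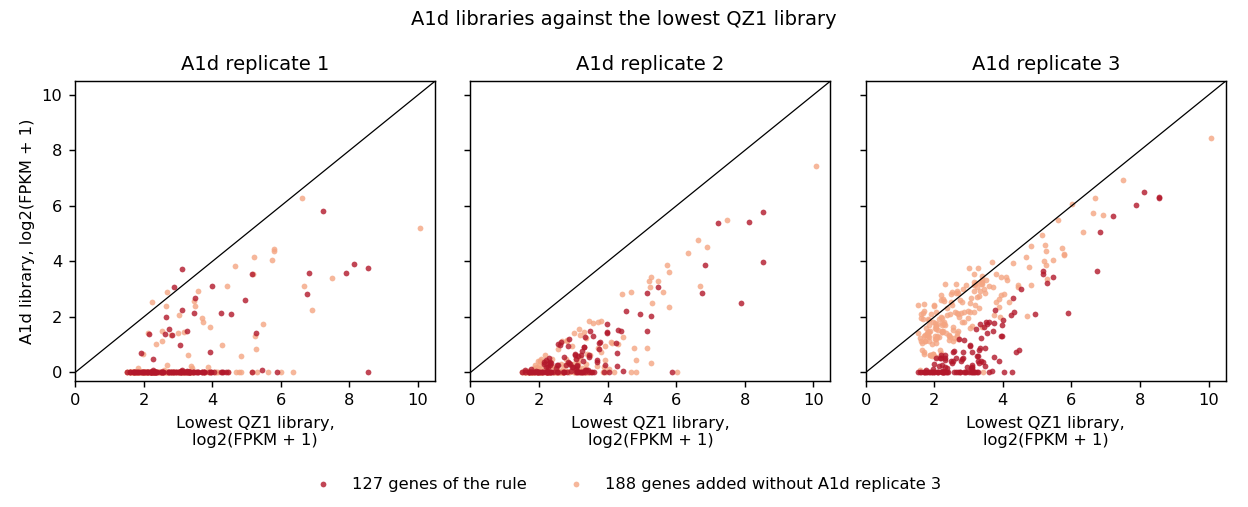
Each point is a gene, with its lowest QZ1 library on the x axis and 1 A1d library on the y axis, both as log2(FPKM + 1), and the line marks equal values. Dark points are the 127 genes and light points the 188 added without A1d replicate 3; the light points mostly lie near the line in A1d replicate 3 and mostly well below it in A1d replicates 1 and 2.

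A1d replicate 1 gave values that the rule had not used. It had no read for 95 of the 127 genes (74.8%), against 21.3% of tested genes. In 114 genes it lay at least 1.5 log2 units below the lowest QZ1 library, as it did in 14.9% of tested genes. In 11 genes it was lower by less, and in 2 it was at or above the lowest QZ1 library. This is 1 library, so no test was made. Its shortage of detected genes moves with the result, and its part in it was not tested. The 32 genes it detected had a median recovered length of 1740 bases, against 977 bases for the 95 it did not. Among the 18 genes with at least 1 FPKM in each compared library, A1d replicate 1 was below the lowest QZ1 library in all 18 and had no read in 4.

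The exceptions were MD17G1260000 and MD15G1239100. MD17G1260000, of 331 bases, had 11, 7.73 and 11.1 FPKM in QZ1, against 12.1, 0.508 and 0 FPKM in A1d and 0.717, 1.27 and 0.54 FPKM in WT. MD15G1239100 had 11.9, 6.42 and 14.1 FPKM in QZ1, 7.35, 0.249 and 0 FPKM in A1d, and 0.526, 0.534 and 0.264 FPKM in WT. In both, A1d replicate 1 lay among the QZ1 libraries or above them, and A1d replicates 2 and 3 lay near WT. MD15G1239100 was named after its values were seen. The 5 genes highest in A1d replicate 1 were MD03G1054700 at 55 FPKM, MD01G1071900 at 13.9, MD00G1127700 at 12.5, MD17G1260000 at 12.1 and MD15G1384500 at 11.1 FPKM, and of these only MD17G1260000 reached its lowest QZ1 library there. Counting A1d replicate 1 among the compared libraries gave 115 genes, of which 107 were among the 127.

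By recovered length the 127 genes had a lower median than all tested genes. Gene lengths, recovered from the steps of the FPKM values, had a median of 1169 bases, against 1535 bases over tested genes and 960 bases over the 53 genes that met the mirrored rule, lower in QZ1 alone. Of the 127, 23 (18.1%) were under 500 bases, against 5.82% of tested genes. Recovered lengths are likelier to be too short where few libraries hold reads, as in the 25 genes without a read in the compared libraries. How far this moved the medians and shares was not tested. The longest was MD14G1191600, at 6946 bases, with 29.7, 46.2 and 33.4 FPKM in QZ1, 5.07, 3.33 and 3.34 FPKM in A1d, and 3.88, 1.60 and 3.38 FPKM in WT; it was named after its values were seen.

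The file gives no positions. Identifiers were read as those of the GDDH13 apple genome, where the number after MD is the chromosome and the number after G runs along it. On this reading chromosome 5 held 18 of the 127 genes, 0.984% of its tested genes, and chromosome 9 held 13, or 0.886%. Over all tested genes the share was 0.479%. Chromosomes 11 and 14 held 2 each, with shares of 0.126 and 0.166%. Chromosome 15, with the most tested genes, held 16. With a margin of 1 instead of 1.5, chromosomes 5, 9 and 15 held 29, 24 and 32 of 252 genes. Without A1d replicate 3 they held 35, 25 and 36 of 305, and chromosome 8 then held 26 in place of 5.

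The identifiers left out on chromosome 10 would have added none. Of 219 genes in that range, 138 were tested and 0 met the other conditions. The largest margin among them was 1.18 log2 units, that of MD10G1173200, named for that value.

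**Figure D4:**
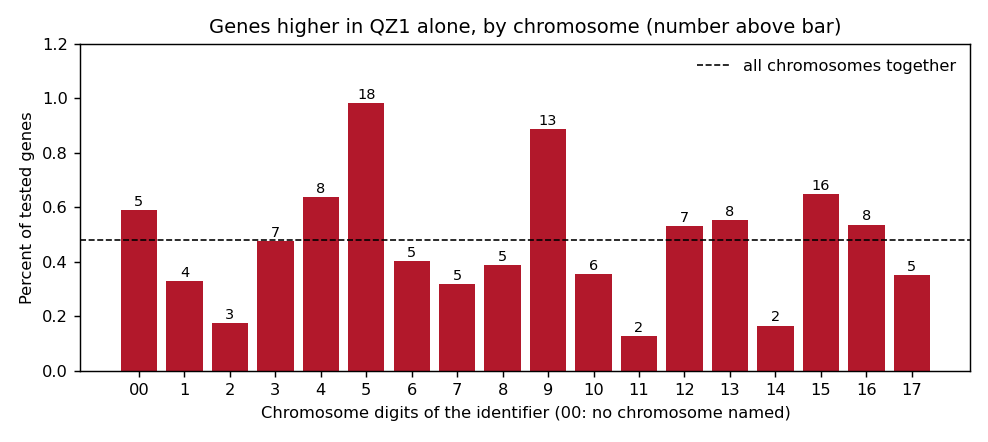
Bars give the genes higher in QZ1 alone as a percentage of the tested genes of each chromosome, read from the identifiers, with the number of genes above each bar. The dashed line is the share over all chromosomes, 0.479%; chromosomes 5 and 9 are the tallest bars and 11 and 14 the lowest among the numbered ones.

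Some of the genes lay side by side. With members of a chromosome joined when their numbers were within 1000 units, which is 10 places at the usual step of 100, 34 of the 127 genes formed 16 runs. Of the 122 genes on numbered chromosomes, 27.9% had another of the 127 within that distance, against 3.89% of the other tested genes. Among the 53 genes lower in QZ1 alone, 20.0% of the 50 on numbered chromosomes had another of their own kind so near. Only 2 of the 122 genes (1.64%) lay near a gene lower in QZ1 alone, as did 1.84% of tested genes. In 12 cases a pair of the 127 stood on consecutive rows of the file.

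The longest runs had 3 genes. On chromosome 7, MD07G1101700 had 3.39, 4.88 and 4.51 FPKM in QZ1, 0, 0.235 and 0.161 FPKM in A1d, and 0.0572, 0.232 and 0.0767 FPKM in WT. MD07G1102600 had 2.04, 2.17 and 2.93 FPKM in QZ1 and 2 reads in A1d and WT together. Its neighbour MD07G1102700 had 4.32, 4.08 and 6.05 FPKM in QZ1 and no read in A1d or WT. Among the 6 genes between them, 4 were tested and 2 of these were called higher in QZ1 than in WT. Over all tested genes the share called higher was 5.05%, and nothing is read from so few genes.

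The other run of 3 was on chromosome 15. MD15G1401600 had 6.73, 9 and 7.77 FPKM in QZ1, 0, 0.138 and 0.136 FPKM in A1d, and 1.31, 0.443 and 1.02 FPKM in WT. Next to it MD15G1401700 had 9.78, 11 and 10.2 FPKM in QZ1, 0, 0.0632 and 0.312 FPKM in A1d, and 0.534, 0.271 and 0.269 FPKM in WT. MD15G1402300 had 7.33, 9.06 and 7.28 FPKM in QZ1, 0.985, 0.578 and 0.972 FPKM in A1d, and 0.0306, 0.155 and 0.276 FPKM in WT. Of the 4 genes between them 2 were tested, and 0 of these were called higher in QZ1 than in WT, beside 5.05% of all tested genes. Here too the genes are too few to be read. Among the 4, MD15G1402100 had 0.309, 0.375 and 0.545 FPKM in QZ1, 3.51, 7.21 and 4.62 FPKM in A1d, and 0, 0 and 0.0365 FPKM in WT, so that A1d alone was high there; it was named after its values were seen.

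The pairs covered a wide range of levels. MD03G1112100 had 5.01, 3.68 and 9.2 FPKM in QZ1 and no read in A1d or WT, beside MD03G1112200 with 7.35, 5.91 and 9.18 FPKM in QZ1, 0, 0.207 and 0.341 FPKM in A1d, and 0.219, 0.173 and 0.245 FPKM in WT. MD16G1232900 had 35, 34.7 and 39.3 FPKM in QZ1, 0, 1.85 and 10.8 FPKM in A1d, and 8.36, 6.03 and 8.59 FPKM in WT. MD16G1233000 next to it had 40.7, 37.7 and 49.9 FPKM in QZ1, 1.66, 3.12 and 8.3 FPKM in A1d, and 10.6, 8.39 and 10.1 FPKM in WT. MD06G1115100 followed MD06G1115000 of the largest margin, with 15.3, 12.4 and 20.2 FPKM in QZ1, 0, 1.09 and 0.48 FPKM in A1d, and 0.77, 1.56 and 1.42 FPKM in WT. In this pair on chromosome 6, QZ1 replicate 3 was highest and replicate 2 lowest for both genes. The pairs on chromosomes 6 and 16 were named after their values were seen.

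The neighbours of the 127 genes were examined among genes outside the 127. Of 131 tested genes directly beside a member, 18 (13.7%) were called higher in QZ1 than in WT by limma, against 5.05% of all tested genes, and 19 (14.5%) were called higher than in A1d, against 2.50%. At 2 to 5 places the shares were 8.67 and 5.54%, and at 6 to 10 places 6.14 and 2.93%. Lower calls beside a member made up 6.11% against WT and 1.53% against A1d, where 5.19 and 1.79% of all tested genes were called lower. In this fit the share of higher calls beside a member stood above that of all tested genes, and the shares of lower calls differed from it by under 1 percentage point. Both comparisons used the same QZ1 libraries, and a gene that met the margin but not the limit on A1d and WT could be among these neighbours. Without A1d replicate 1 the shares directly beside a member were 23.8% against WT and 13.8% against A1d, where 11.1 and 2.79% of all tested genes were called higher. Without A1d replicate 3 they were 15.3 and 19.1%, against 5.33 and 4.23%. Lower calls beside a member did not stay as near to the share of all tested genes in these fits. Without A1d replicate 1 they made up 17.7% against WT and 2.31% against A1d, where 13.3 and 2.51% of all tested genes were called lower. Without A1d replicate 3 they made up 5.34% against WT and 3.82% against A1d, where 4.81 and 1.74% of all tested genes were called lower. These shares are descriptions, since neighbours may share reads or a position.

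**Figure D5:**
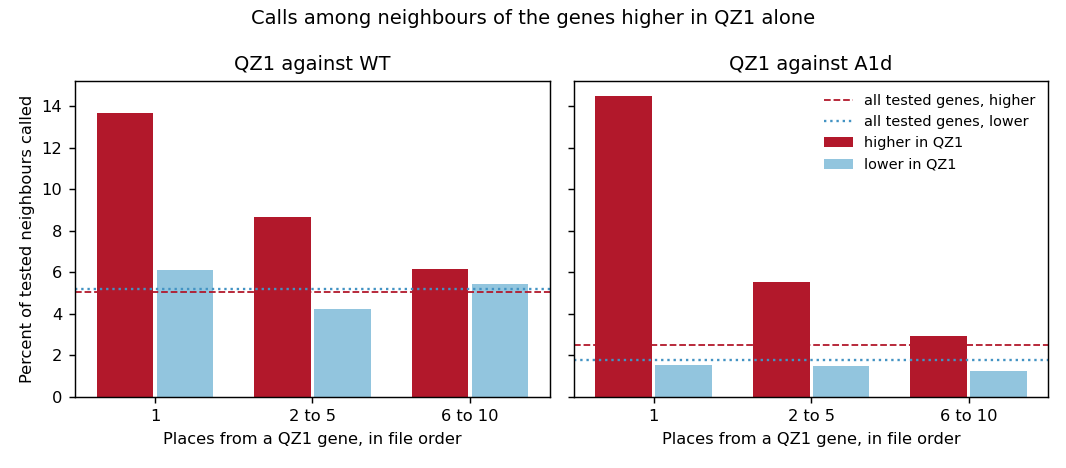
Bars show the percentage of tested genes near a gene higher in QZ1 alone that limma called higher (red) or lower (light blue) in QZ1, by distance in file order, against WT on the left and against A1d on the right. Dashed and dotted lines are the same percentages over all tested genes; the red bars fall towards the dashed lines with distance, and the blue bars stay near the dotted lines.

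Both comparisons called 11 of the 131 direct neighbours higher in QZ1. The share of all tested genes called in both was not counted, so nothing is read from the 11. The 3 given here were picked from their values, which are therefore given without a test. MD08G1155900 beside MD08G1156000 had 26.9, 24.8 and 34 FPKM in QZ1, 0, 0 and 3.12 FPKM in A1d, and no read in WT. Its margin was 2.65, and with A1d replicate 3 the mean of A1d exceeded that of WT by more than the limit allowed. MD08G1068400 beside MD08G1068300 had 74, 81.3 and 116 FPKM in QZ1, 3.22, 4.88 and 14.9 FPKM in A1d, and 11.4, 29.8 and 25 FPKM in WT. All 3 QZ1 libraries were above every library of A1d and WT. MD13G1055200 beside MD13G1055300 had 9.86, 9.57 and 10.9 FPKM in QZ1, 0, 0.306 and 2.04 FPKM in A1d, and 2.91, 1.72 and 2.03 FPKM in WT.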

How the data were processed

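Per the labels, RNA was extracted with the mirVana kit and libraries were made from polyadenylated RNA with the TruSeq Stranded mRNA kit. Trimmomatic is named in the submitters' processing notes. The aligner, the counting method, its strand setting and the genome build are steps not given in the sources used here. The deposited table holds FPKM computed by the authors for 39951 identifiers in 9 columns, 1 per library; the unit is taken from the deposited file's name. The members, lists and tests were chosen with earlier results of these data known.

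Whole reads, lengths and library totals were recovered from the FPKM steps. Of 37548 genes above 0, 37548 came out whole within 0.0001 reads plus rounding. The recovery was checked on simulated data. Lengths of genes whose reads share a divisor may be too short, which is likelier for genes with reads in few libraries.

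Genes with FPKM of at least 1 in at least 3 of 9 libraries (26510) were fitted by limma 3.58.1 (R 4.3.3, intensity trend) on log2(FPKM + 1), all 9 libraries in 1 fit, with Benjamini-Hochberg adjustment over all of them within each contrast. Fold changes on this scale understate those of low genes. The test was checked on simulated data that gave each gene the same spread in all libraries. They held no library like A1d replicate 1, so the check does not cover its effect on the calls. Ratios use recovered reads over library totals with exact conditional 95% intervals. A floor of 3 reads over the group stands for 0. Genes named were the 10 largest margins, the 10 highest QZ1 means, 3 on each side of the threshold, the 3 longest runs (the first of equal length), the 5 most abundant without a read elsewhere and the 5 highest in A1d replicate 1; others are marked in the text, except genes that the closing section lists by its own criterion. Alternatives were other pseudocounts, filters, scalings, margins, fits with a replicate block, voom on recovered reads, and leaving out each library. Libraries of the same replicate number showed no shared deviation, and the main fit held no pairing. The spread behind every p-value is that of these 3 libraries per rootstock, and it may be technical. Python 3.11.15, numpy 2.4.6, pandas 2.3.3, scipy 1.17.1 and matplotlib 3.10.9 were used. No sequences are shown.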

Additional observations from a re-analysis of the deposited data

Results flagged for a closer look

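In A1d replicate 1, the library outside the choice of genes, 13 of the 127 genes had at least 1 FPKM and more than any WT library. The share of all tested genes that met the same criterion was not counted, so nothing is read from this number. By FPKM in A1d replicate 1 and then in the highest WT library, these were MD03G1054700 (55 and 42.1 FPKM), MD17G1260000 (12.1 and 1.27 FPKM), MD17G1138600 (7.68 and 4.42 FPKM), MD15G1239100 (7.35 and 0.534 FPKM), MD15G1216700 (5.37 and 1.65 FPKM), MD14G1191600 (5.07 and 3.88 FPKM) and MD05G1025100 (3.72 and 0.306 FPKM). The lower ones were MD05G1261100 (3.44 and 1.27 FPKM), MD09G1256300 (3.01 and 1.05 FPKM), MD12G1020100 (1.93 and 0.64 FPKM), MD10G1038700 (1.61 and 0.569 FPKM), MD10G1018900 (1.6 and 0.0541 FPKM) and MD03G1146400 (1.53 and 1.21 FPKM). In 11 of the 13 the lowest QZ1 library was higher than A1d replicate 1; MD17G1260000 and MD15G1239100 were the exceptions. No test was possible with 1 library.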

How the results depend on the processing

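The 127 genes became 275 with a pseudocount of 0.1 (89 of the 127 among them), 252 with a margin of 1 and 62 with a margin of 2. Leaving out each library in turn gave 125 to 305 genes, with 305 found without A1d replicate 3. Rescaling to TPM gave 151, median-of-ratios 137 and quantile normalization 128. Of 429 margins of 33 named genes, recomputed under the 13 settings that can move a margin, 362 moved by less than the SD of QZ1, 66 moved by more and 1 turned round, that of MD17G1260000 at -0.59 with A1d replicate 1 counted. By its definition a margin could only stay or rise where a library was left out. It could only stay or fall where A1d replicate 1 was counted. Runs held 32 to 41 genes with gaps of 500 and 2000. The share of direct neighbours called higher than in WT was 23.8% without A1d replicate 1 and 15.3% without A1d replicate 3; both settings were added after the data were seen.

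For QZ1 against WT, QZ1 against A1d and A1d against WT in that order, limma called 2713, 1136 and 814 genes in either direction. A minimum of 5 FPKM gave 1786, 631 and 445, only the 6 libraries compared 5559, 432 and 207, and voom 1738, 594 and 369. A pseudocount of 0.1 gave 733 for QZ1 against A1d and 541 for A1d against WT. Leaving out each library gave 710 to 6401, 135 to 1565 and 160 to 1276. The replicate block gave 1966, 577 and 420. Libraries of the same number did not deviate together (r of -0.178 to 0.042 across genes), beside r of -0.05 to 0.211 for different numbers. With so few libraries per rootstock this shows no sign of pairing but cannot exclude it. Quantile normalization moved the median log2 difference over all tested genes to 0.005 for QZ1 against WT, beside -0.098 without it, and gave 571 higher and 344 lower calls for A1d against WT, beside 372 and 442. The causes were not tested. Depth limits the genes with few reads.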
